A study of Glycine max with 16 samples.

Results

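The 60 probe sets described here reported soybean leaf transcripts that were lower at the photosynthetic optimum than at growth temperature and that stayed near that lower level while heat went on to inhibit photosynthesis. They were chosen from the measured values. Of 61035 probe sets that are not array controls, 59258 have no gene in the platform annotation or only a locus (LOC) number, and 60 of these met 4 conditions on the mean log2 signals of the states. The optimum mean lay at least 1.5 below the baseline mean, the means at 20% and at 30% inhibition each lay within 0.5 of the optimum mean, and the highest state mean was at least 8, a signal of 256. A log2 difference of 1.5 is a 2.83-fold difference in signal, and 0.5 is a 1.41-fold difference. The differences from baseline, and those between the optimum and either inhibited state, therefore describe the choice and were not tested for the members.

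RNA came from Glycine max cultivar Williams 82, from the first leaf to be fully expanded, with 4 arrays for each of 4 physiological states. The growth chamber was kept at 22 °C under a 10 h photoperiod for every plant. The baseline arrays hold leaves photosynthesising at that growth temperature, the optimum arrays leaves at the temperature of the highest photosynthetic rate, and the 20%Inhibition and 30%Inhibition arrays leaves at hotter temperatures where the rate was that far below the optimum. Per the labels, air was warmed by 2 °C every 10 min towards 42 °C, leaves were taken after 20 to 30 min at the wanted state, and a whole curve lasted 3 to 4 h. Temperature and time since the start of warming cannot be told apart in this design. No unwarmed leaf taken at a later hour is among the 16 arrays. In whole leaf RNA, fewer cells of a type and less RNA per cell also cannot be told apart. It is not stated whether 1 plant was sampled in more than 1 state, and p-values measure the spread between these arrays.

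As a leaf warms, its net photosynthesis first climbs to an optimum and then declines, in part because Rubisco activase, which keeps the carbon-fixing enzyme Rubisco active, is heat labile. Warming also releases heat shock factors, which switch on chaperone genes, while many other transcripts become less abundant through lower synthesis or faster decay. Many leaf transcripts further follow the hour of the day under the circadian clock, whose morning genes are highest near dawn.

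Signals are MAS5 intensities, and each is given as mean ± SD over 4 arrays unless the 4 arrays are listed, in the order of their replicate numbers. All arrays had been scaled to a common mean. A background level was taken on each array as the signal below which 95% of its probe sets for 2 soybean pathogens lay, and it was 81.8 ± 7.0 at baseline, 86.2 ± 11.9 at the optimum, 125 ± 28.1 at 20% and 112 ± 30.8 at 30% inhibition. All 5 annotated leaf markers, among them CAB3 and RCA14, were above it on all 16 arrays, at signals of 2238 to 82631. Of 7 annotated seed markers, 5 were below it on all 16 arrays, while GY2 exceeded it on 3 and CG-1 on 5 arrays. The nodule and root symbols looked for are not in the annotation.

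Over the 60 probe sets, the median log2 signal was 9.70 ± 0.25 on the baseline arrays, 8.05 ± 0.19 at the optimum, 8.05 ± 0.12 at 20% and 8.01 ± 0.16 at 30% inhibition (mean ± SD of 4 array medians). In linear terms the typical member went from a signal of 833 to 265 at the optimum and stood at 265 and 257 in the inhibited leaf. The median log2 difference from baseline was -1.75 at the optimum (range -5.25 to -1.51), -1.80 at 20% inhibition and -1.92 at 30% inhibition. The optimum differences crowd against the threshold. In 44 members they were between 1.5 and 2 in size, in 11 between 2 and 2.5, in 3 between 2.5 and 3, and in 2 above 3. By comparison, the median difference of all 30517 probe sets that passed the filter on low signals was -0.00029 at the optimum, and 6.26% of those probe sets were called lower there in limma with Benjamini-Hochberg adjustment. At 20% and 30% inhibition 18.6% and 17.7% were called lower than at baseline.

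**Figure D1:**
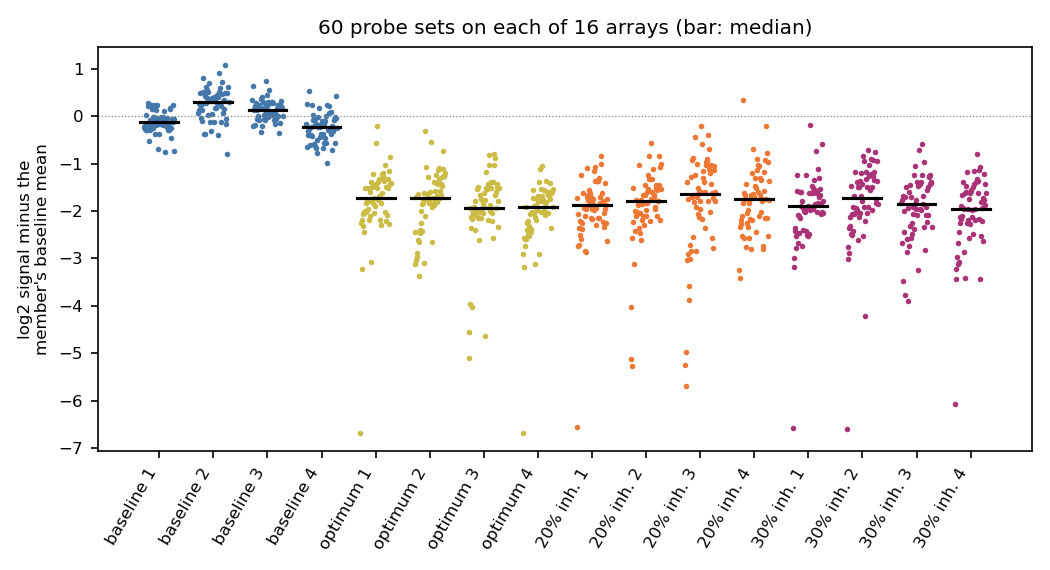
Each point is 1 of the 60 probe sets on 1 array, plotted as its log2 signal minus its own mean over the 4 baseline arrays. Arrays are ordered by state, and bars are medians over the 60. The medians of the 12 warmer arrays lie close together and well below those of the 4 baseline arrays, and a few points reach far lower.

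The members are anonymous for the most part. No gene is listed for 47, and 13 carry LOC numbers of 12 genes, all found in the RefSeq table of assembly Glycine_max_v4.0. Of these genes 11 are entered there as protein coding and 1, LOC100779717, as a long non-coding RNA, a transcript class with no protein product. No product names or synonyms are given for any of the 12. The share with a LOC number, 21.7%, is near the 20.3% among all soybean probe sets without a gene name. Suffixes of the probe set IDs were likewise distributed as on the array. The suffix _at, given to probes designed to match 1 transcript, was carried by 51 members, or 85.0%, against 86.8% of the soybean probe sets of this class. The suffix _s_at, for probes shared by several transcripts, was carried by 5 members, or 8.33%, against 8.38%.

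The largest differences belonged to 10 probe sets. The first, GmaAffx.32901.3.S1_at, with no gene listed, gave signals of 548, 676, 814 and 578 at baseline and 6.32, 74.6, 27.6 and 6.33 at the optimum. It read 6.88, 18.6, 17.1 and 67.8 at 20% and 6.77, 6.72, 182 and 9.60 at 30% inhibition. All 4 optimum arrays and all 4 arrays at 20% inhibition were below background, so the log2 difference of -5.25 is not a measured ratio: against the background level the baseline signal was at least 7.55-fold higher than at the optimum and at least 5.27-fold higher than at 20% inhibition. One array, 30%Inhibition replicate 3, stood apart with a signal above its background.

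GmaAffx.65238.1.A1_at, annotated to the protein-coding gene LOC100815007, had baseline signals of 336, 415, 328 and 452. Its signals were 80.0, 69.6, 11.2 and 50.7 at the optimum, 114, 23.4, 12.1 and 35.6 at 20% and 47.9, 55.9, 111 and 34.9 at 30% inhibition. Warm and baseline arrays did not overlap, and the warm values lay around background: at 30% inhibition all 4 were below it, which leaves baseline at least 3.49-fold higher. GmaAffx.5579.1.S1_at, with no gene listed, read 532, 779, 996 and 407 at baseline and 69.1, 78.5, 168 and 70.8 at the optimum. It then read 96.4, 109, 12.5 and 126 at 20% and 70.8, 79.1, 99.9 and 68.2 at 30% inhibition. This last state was below background on all 4 arrays, with baseline at least 5.89-fold higher. Replicate 3 was the highest array at the optimum and the lowest at 20% inhibition.

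Gma.8244.2.S1_at and Gma.1122.1.A1_at, both without a gene, also ended near background. Gma.8244.2.S1_at had 369, 630.3, 496 and 365 at baseline, 99.6, 138, 29.1 and 76.6 at the optimum, 108, 11.7, 172 and 99.5 at 20% and 84.1, 88.9, 40.5 and 58.2 at 30% inhibition. Gma.1122.1.A1_at had 463, 532, 501 and 347 at baseline, 91.3, 58.3, 104 and 67.9 at the optimum, 69.7, 159, 56.0 and 94.0 at 20% and 89.1, 61.9, 142 and 52.7 at 30% inhibition. For both, every warm array lay below every baseline array, while 2 or 3 of the 4 arrays in each warm state were under background.

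The next members stayed measurable in the warm leaf. Gma.13187.1.S1_at (LOC100802936) had baseline signals of 1647, 1972, 1788 and 2902 and optimum signals of 482, 275, 396 and 335, a 5.56-fold difference of geometric means. At 20% inhibition it read 395, 432, 272 and 469 and at 30% inhibition 351, 404, 372 and 317. No warm array was under background, no warm array reached a baseline array, and the 3 warm means of 372 ± 88.4, 392 ± 85.3 and 361 ± 36.7 lay within each other's SD. Gma.12220.2.S1_a_at, the long non-coding RNA LOC100779717, went from 1704, 2256, 2211 and 1585 to 355, 312, 426 and 319 at the optimum. It then read 336, 219.8, 568 and 334 at 20% and 277, 441, 481 and 228 at 30% inhibition. These log2 differences from baseline, -2.45, -2.48 and -2.49, are as flat as any among the 10, with a wider spread in the inhibited states.

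The remaining 3 of the 10 have no gene and varied more between arrays. GmaAffx.74080.1.S1_at read 987, 882, 930.1 and 533 at baseline, 199.7, 259.9, 50.0 and 214 at the optimum, 174, 203, 67.7 and 226 at 20% and 269.9, 293, 59.05 and 149 at 30% inhibition. Its replicate 3 was the lowest array of each warm state and the only one there under background. GmaAffx.59377.2.S1_at read 1272, 1033, 1343 and 838 at baseline and 383, 107, 275 and 231 at the optimum, and its 20% inhibition arrays, at 465, 206, 75.4 and 1392, ran from below background to above every baseline array. At 30% inhibition it read 468, 198, 336 and 231. GmaAffx.11259.1.S1_at had 992, 1633, 1094 and 977 at baseline, 286, 181, 274 and 217 at the optimum, 189.8, 338, 142 and 376 at 20% and 181, 276, 407 and 263 at 30% inhibition, with no overlap between warm and baseline arrays.

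**Figure D2:**
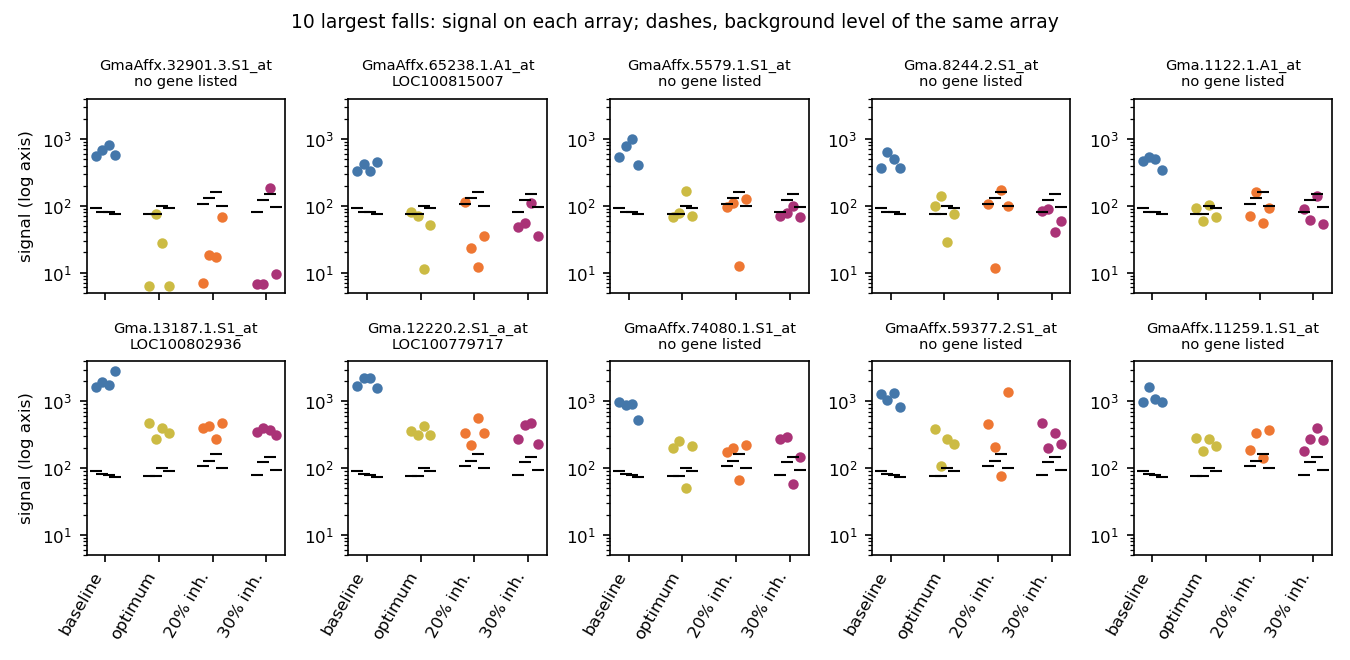
Signals of the 10 probe sets with the largest optimum differences on each of the 16 arrays, on a log axis, with replicates 1 to 4 from left to right within a state. Short black dashes give the background level of the same array. The first 5 panels have warm signals around or below the dashes, while LOC100802936 and LOC100779717 stay above them throughout.

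Among the brightest members the lower level was far above background. The brightest, Gma.17516.1.S1_at of the protein-coding gene LOC100779440, had baseline signals of 20902, 16893, 25448 and 26006. The optimum arrays read 5413, 4181, 5792 and 4746, those at 20% inhibition 4257, 5383, 3053 and 6515, and those at 30% inhibition 4010.4, 4076, 3668 and 4916. The log2 differences from baseline were -2.14, -2.25 and -2.41, and no warm array came near the lowest baseline array. A second probe set of this gene, GmaAffx.16002.1.A1_at, was much dimmer and differed less, with signals of 428 ± 47.5 at baseline and 297 ± 57.2 at the optimum, a log2 difference of -0.54.

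LOC100499992 is the one gene with a pair of members. Gma.1526.2.S1_x_at read 4368, 5959, 4459.9 and 3969 at baseline, 1370.2, 1372, 1145 and 1246 at the optimum, 1357, 1014, 1231 and 1384 at 20% and 1189, 1056, 1109.5 and 966 at 30% inhibition. Gma.1526.1.S1_s_at read 2819.9, 4134, 2893 and 2673 at baseline, 795, 851, 729.6 and 595 at the optimum, 831, 839.6, 945 and 1135 at 20% and 693, 742, 1019 and 804 at 30% inhibition. Both had their highest baseline signal in replicate 2, and neither had any overlap between warm and baseline arrays. Their deviations from the state means correlated at r = 0.59 over the 16 arrays. The suffixes mark probes that can bind several transcripts, so both may include relatives of this gene.

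A further pair of bright members with LOC numbers had similar levels. Gma.10626.4.S1_at (LOC100809202) had baseline signals of 2824, 4576, 5014 and 2853, optimum signals of 1342, 1083, 1029.8 and 936, then 831, 1341, 839 and 1181 at 20% and 992, 1059.5, 1083 and 1201 at 30% inhibition. GmaAffx.32901.1.A1_at (LOC100814016) had baseline signals of 2737, 3972, 3587 and 2300.1, optimum signals of 825, 866, 1007 and 953, then 681, 780.5, 893 and 949.9 at 20% and 535, 1138, 789 and 639 at 30% inhibition. Both are entered as protein coding, and in both the baseline arrays 2 and 3 were the 2 highest of the 16.

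The bright members with no gene differed in how tightly the arrays agreed. Gma.17680.1.S1_at was tight, with 2418, 3607, 2949 and 2999.7 at baseline, 888, 737, 562 and 592 at the optimum, 960.0, 710.2, 1220.4 and 929 at 20% and 688, 788, 768 and 694 at 30% inhibition. Gma.10919.3.S1_at had 2083, 3467, 2256 and 2327 at baseline, 996, 889, 814 and 735 at the optimum, 599, 719, 808 and 738 at 20% and 779, 981, 1028 and 399 at 30% inhibition. Neither had any overlap of a warm with a baseline array. Gma.6223.1.S1_at spread widely at baseline, at 2437, 6095, 3808 and 2606, and narrowed to 972, 632, 835 and 609 at the optimum, 728, 814, 528 and 591 at 20% and 818, 609.8, 480.1 and 941 at 30% inhibition. GmaAffx.55387.1.S1_at spread likewise at baseline, at 2043, 3652, 2689.8 and 1584, with 828, 440.3, 591 and 571 at the optimum, 330.1, 465, 404 and 496 at 20% and 635, 573, 355 and 911 at 30% inhibition. In both, the highest baseline array was replicate 2. In the last of the 10 brightest, Gma.2096.3.S1_s_at, the states overlapped: it had 7152, 10208, 8848 and 4188 at baseline and 858, 5770.4, 1179 and 2170.4 at the optimum, with 3379, 2113, 5335 and 1207 at 20% and 1874, 2561, 1518 and 2375 at 30% inhibition. Its optimum replicate 2 and 20%Inhibition replicate 3 exceeded the lowest baseline array.

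The other 5 LOC genes were dimmer. LOC732618 (Gma.3165.1.S1_at) had signals of 1885 ± 245 at baseline, 535 ± 41.5 at the optimum, 599 ± 156 at 20% and 436 ± 132 at 30% inhibition. LOC100797466 (Gma.12983.1.A1_at) had 975 ± 280.2, 316 ± 95.1, 321 ± 115 and 316 ± 50.9 in the same order. In both, all 12 warm arrays lay below all 4 baseline arrays. LOC547866 (Gma.149.1.S1_at) had 514 ± 171, 161 ± 21.2, 188 ± 57.8 and 217 ± 101, and its 30%Inhibition replicate 3 overlapped the lowest baseline array. LOC100527757 (GmaAffx.54570.1.S1_at) had 553 ± 39.6, 185 ± 41.9, 242 ± 119.5 and 202 ± 94.0. LOC100796480 (GmaAffx.92676.1.S1_s_at) had 671 ± 45.2, 243 ± 99.4, 273 ± 49.3 and 256 ± 74.3. The last pair had the smallest relative spread at baseline of the LOC members.

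Separation between warm and baseline arrays was common among the 60, which the choice favours. The 4 optimum arrays lay below all 4 baseline arrays in 57 members, against 6.02% of all 61035 probe sets. The same held in 55 members at 20% inhibition, where the background share was 8.94%, and in 56 at 30% inhibition, where it was 9.69%. All 12 warmer arrays lay below all 4 baseline arrays in 53 members, against 3.33% of all probe sets. These shares were not matched to the members. They include 23350 pathogen probe sets and dim soybean ones, while every member is a soybean probe set with a highest state mean of at least 8. The 7 exceptions were GmaAffx.59377.2.S1_at, Gma.2096.3.S1_s_at, GmaAffx.69533.1.S1_at, GmaAffx.26983.1.S1_at, Gma.149.1.S1_at, Gma.7800.1.A1_s_at and GmaAffx.80172.1.A1_at. No member was below background on any baseline array. At the optimum 1 member was below it on all 4 arrays and 15 on 1 to 3 arrays. In each of the inhibited states 3 members were below it on all 4 arrays and 16 on 1 to 3 arrays.

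How far 1 array carried a member was uneven. Leaving out each baseline and each optimum array in turn kept a log2 difference of at least 1.5 in all 8 settings for 35 members and of at least 1 for 59. The exception was GmaAffx.69533.1.S1_at, whose difference of -1.69 became -0.71 without optimum replicate 3, where its signal was 15.2 beside 323, 257, 15.2 and 143 over the 4 arrays. Baseline replicate 2 mattered most often: without it the difference was at its smallest for 23 of the 60. Applying the 4 conditions again without each of the 16 arrays gave between 49 and 74 members, and 14 of the 60 were chosen every time. Among these 14 were Gma.13187.1.S1_at (LOC100802936), Gma.12220.2.S1_a_at (LOC100779717), both probe sets of LOC100499992 and Gma.10626.4.S1_at (LOC100809202).

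The thresholds cut through a continuous spread. Just inside the fall threshold were GmaAffx.15231.1.S1_at, GmaAffx.39264.1.A1_at and GmaAffx.80172.1.A1_at, all at -1.51. Just outside were Gma.12661.1.S1_at at -1.49, GmaAffx.29956.1.S1_at (LOC100305993) at -1.45 and GmaAffx.82240.1.S1_at at -1.45. For the flat course, measured at 20% inhibition minus optimum, GmaAffx.55387.1.S1_at at -0.4998, GmaAffx.80172.1.A1_at at -0.496 and GmaAffx.5579.1.S1_at at -0.492 were just inside. Gma.8244.1.A1_at at -0.503 and Gma.14187.1.A1_at at -0.505 were just outside, as was GmaAffx.32901.2.S1_at at -0.517 for 30% inhibition minus optimum. The dimmest members at baseline were Gma.363.1.S1_at, Gma.10582.3.S1_at and GmaAffx.39264.1.A1_at, at log2 signals of 8.08, 8.30 and 8.35. GmaAffx.13705.1.S1_at, Gma.10847.2.S1_at and Gma.4944.1.A1_at met the other conditions at log2 signals of 7.89, 7.80 and 7.80.

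**Figure D3:**
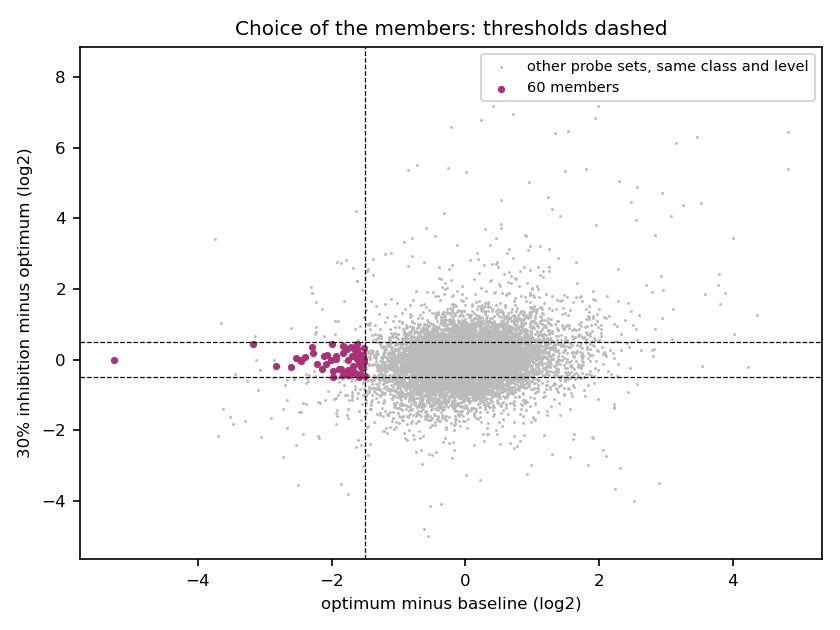
Each point is 1 probe set without a gene name whose highest state mean was at least 8 on the log2 scale. The horizontal axis is the log2 difference between optimum and baseline, the vertical axis that between 30% inhibition and optimum, and dashed lines are thresholds of the choice. The 60 members lie left of the vertical line and between the horizontal lines, 1 of them far to the left, together with 23 grey points that left the range only at 20% inhibition.

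The step from 20% to 30% inhibition is the one difference that the choice did not use directly, although it bounds it to at most 1.0 on the log2 scale. No member passed the test. In limma over all 16 arrays with Benjamini-Hochberg adjustment, 0 of the 59 members that passed the filter on low signals were higher and 0 were lower, and 0 of 30517 probe sets were called in all, a background share of 0%. At an unadjusted p under 0.05, limma picked 5 of the 59 members, or 8.47%, and 1193 of all tested probe sets, or 3.91%. The member left out by the filter was GmaAffx.32901.3.S1_at. The median member difference was -0.077, beside 0.0096 over all tested probe sets, with 19 members higher and 41 lower at 30% inhibition.

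The 5 members with an unadjusted p under 0.05 were named after their values were seen. GmaAffx.80172.1.A1_at read 326, 343, 750.2 and 272 at 20% and 1045, 608, 595 and 581 at 30% inhibition, a log2 difference of 0.82 ± 0.35 (SE of the limma fit, adjusted p = 0.9997). Its arrays overlapped through 20%Inhibition replicate 3. GmaAffx.66755.1.S1_at read 246, 206, 209 and 236 at 20% and 138, 111, 193 and 92.4 at 30% inhibition, without overlap, a log2 difference of -0.80 ± 0.25 (limma adjusted p = 0.9997). The other members were Gma.2534.4.S1_at at 0.50, Gma.3165.1.S1_at (LOC732618) at -0.47 and GmaAffx.15231.1.S1_at at -0.49. With 4 arrays a state, differences of this size were not distinguishable from the spread once all probe sets were counted.

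The choice held the inhibited states close to the optimum, so the directions that follow are a description. Relative to the optimum, 32 stood higher at 20% inhibition and 28 at 30% inhibition, with 21 higher in both and 21 lower in both. The lowest state mean was at the optimum in 21 members, at 20% inhibition in 15 and at 30% inhibition in 24. As examples chosen after their values were seen, GmaAffx.12706.1.A1_at went down, with signals of 789 ± 271 at the optimum, 607 ± 118 at 20% and 571 ± 39.3 at 30% inhibition. GmaAffx.9059.1.S1_at went the other way, with 98.0 ± 20.3, 145 ± 62.3 and 133 ± 29.9. It lay near background, and was under it on 2, 2 and 1 of the 4 arrays in the same order. The mean background level, at 86.2, 125 and 112, was also lowest at the optimum and highest at 20% inhibition. The part of that level in these signals was not tested. In both members the SDs of neighbouring states overlapped.

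Several probe sets on this array carry the same ID number, meaning the prefix and first number of the probe set ID. The 60 members have 55 ID numbers. Gma.10582 holds 3 members, and Gma.10919, Gma.1526 and GmaAffx.32901 hold 2 each. In 14 of the 55, a further 29 probe sets are on the array that were not chosen. Of these 29, 5 were lower at the optimum by at least 1.5 on the log2 scale, 9 by 1 to 1.5, 5 by less than 1, and 10 were higher. Thus 14, or 48.3%, were lower by at least 1, against 5.53% of all 37593 soybean probe sets and 2.96% of those with a highest state mean of at least 8. Probe sets of one ID number can bind the same transcript, so this is not independent evidence.

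In some ID numbers the others were lower at the optimum, as the member was, though the later course was not always shared. All 3 others of Gma.2096 lay lower at the optimum, and Gma.2096.1.S1_at, for example, had signals of 10399.8 ± 3219.9 at baseline and 4317 ± 2493 at the optimum, with log2 differences of -1.37, -1.17 and -1.29 from baseline in the 3 warm states. In Gma.5251 the courses parted after the optimum, as the others went lower still with further warming. Gma.5251.1.S1_at (LOC100820570) had -1.70, -2.01 and -2.26, while the member Gma.5251.2.S1_at had -1.72, -1.59 and -1.35. Gma.7800.1.A1_at had -1.43, -1.36 and -1.42, close to the member Gma.7800.1.A1_s_at at -1.56, -1.72 and -1.75.

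In others most probe sets took another course than the member. Gma.2534 includes the polyubiquitin gene SUBI-1, whose product tags proteins for breakdown. Gma.2534.1.S1_s_at (SUBI-1) had signals of 21434 ± 1035 at baseline and 25903 ± 2808 at the optimum, a log2 difference of 0.27. The much dimmer member Gma.2534.4.S1_at had 1778 ± 301 and 514 ± 170.3, a difference of -1.83, with no gene listed. Gma.2534.5.S1_s_at was also lower, with log2 differences of -0.62, -0.97 and -0.43 from baseline and no overlap at the optimum. In Gma.10626, where the member reports LOC100809202 at -1.76, the brightest other probe set, Gma.10626.3.S1_at of LOC100775942, had signals of 4256 ± 1407 at baseline and 6013 ± 1277 at the optimum, a difference of 0.53. An ID number thus does not stand for 1 course on these arrays.

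**Figure D4:**
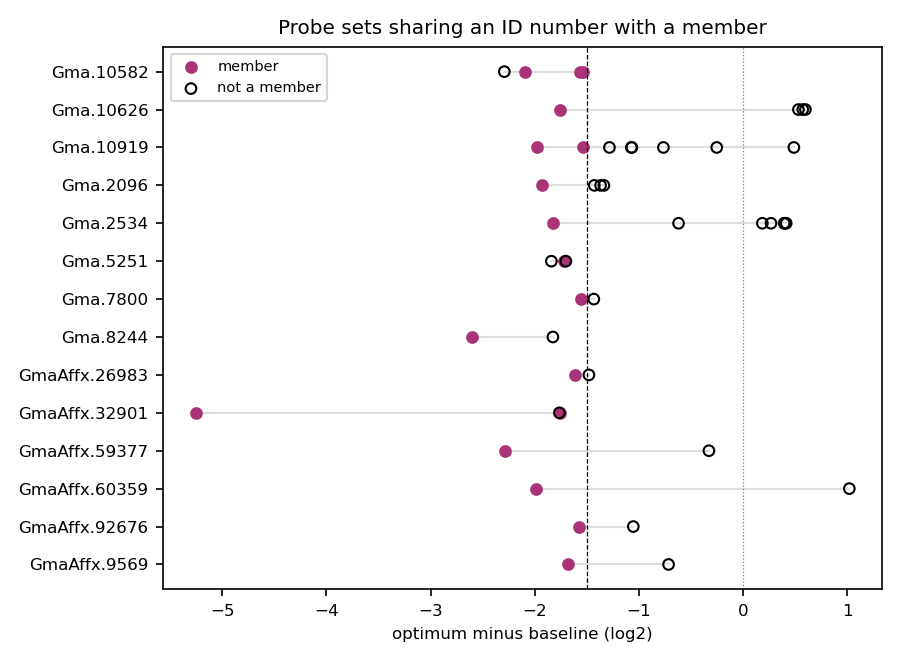
Log2 difference between optimum and baseline for every probe set that shares its ID number with a member, 1 row per number. Filled points are members, open points were not chosen, and the dashed line is the threshold of -1.5. Open points lie close to the members in rows such as Gma.2096 and Gma.5251 and above 0 in Gma.10626, while in Gma.2534 they lie on both sides of 0.

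Other probe sets annotated to the same LOC genes also varied, and 6 exist for 5 of the 12 genes. LOC100796480 has 3 probe sets: the member at -1.58, Gma.2175.1.S1_at at -1.18, and GmaAffx.92676.1.S1_at at -1.05 at the optimum but 0.03 and -0.12 in the inhibited states. Gma.3660.1.S1_at of LOC100527757 was brighter than the member and kept on downward, with -0.72, -1.69 and -2.05. For LOC100815007, which has the second largest difference among the members, Gma.12487.1.S1_at had signals of 4647 ± 379.5 at baseline and 4628 ± 749.7 at the optimum, a log2 difference of -0.02. GmaAffx.73.1.A1_at of LOC100809202 read only 44.4 ± 44.5 at baseline and 35.8 ± 11.5 at the optimum, below the mean background of both states. For LOC100815007, LOC100527757 and LOC100796480, then, the member's course is not that of every probe set of the gene. The dimmer second probe set of LOC100779440, GmaAffx.16002.1.A1_at, also differed less than the member, at -0.54, -0.69 and -0.67.

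The spread between arrays of one state was wide for many members. Their median SD on the log2 scale was 0.30 at baseline, 0.37 at the optimum, 0.49 at 20% and 0.42 at 30% inhibition. For the 22620 soybean probe sets without a gene name and with a highest state mean of at least 8 it was 0.22, 0.21, 0.26 and 0.22. The comparison was not matched for level, and the members were dimmer in the warm states. Deviations from the state mean correlated between members at a mean r of 0.090 over 1770 pairs and 16 arrays, beside 0.0037 among those 22620. Neither value sets the members apart from groups chosen in similar ways, which had a mean r of 0.130 (stepwise), 0.186 (transient) and 0.278 (lower only in the inhibited states) and a median baseline SD of 0.31, 0.56 and 0.36. Members share RNA and hybridization on each array, so these are descriptions.

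The shared part was most visible at baseline, where the choice used only the mean. The median member deviation was -0.13 on replicate 1, 0.30 on replicate 2, 0.13 on replicate 3 and -0.24 on replicate 4. Of the 60 members, 48 lay below their own baseline mean on replicate 1, 12 on replicate 2, 16 on replicate 3 and 49 on replicate 4. The 22620 probe sets of the class had medians within 0.01 of 0 on all 4 of these arrays. Among other groups with lower warm signals, 2 had the same signs as the members, with medians of -0.11, 0.19, 0.12 and -0.26 in the stepwise group and -0.35, 0.64, 0.11 and -0.44 in the transient group. The group lower only in the inhibited states had 0.13, -0.16, 0.16 and -0.23. Among the 80 probe sets with the mirrored course, chosen after the values were seen as at least 1.5 higher at the optimum and within 0.5 of it afterwards, the deviations had the opposite sign, at 0.15, -0.31, -0.08 and 0.23.

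Other values also moved between these arrays and states. Among heat shock transcripts, HSP90A1, a cytosolic chaperone, read 1388, 1183, 1086 and 3424 on the 4 baseline arrays (GmaAffx.21211.1.S1_at), highest on replicate 4, where the members were lowest. Most other heat shock probe sets were also highest on replicate 4, but not all. The heat shock factor HSF-08 read 434, 1097, 445 and 770 (GmaAffx.71308.1.S1_at), highest on replicate 2, as the members were. HSF-26 read 199, 141, 88.1 and 128 (Gma.28.1.S1_at), highest on replicate 1. The log2 ratio of 3′ to 5′ signal of the control transcript labelled GlutTrans, a sign of RNA integrity or labelling, was 0.07 ± 0.25 at baseline, 0.80 ± 0.16 at the optimum, 0.90 ± 0.16 at 20% and 0.83 ± 0.13 at 30% inhibition. It stepped up between baseline and optimum and then stayed level, in the same states as the members stepped down. On the baseline arrays it was 0.18, -0.28, 0.28 and 0.09 for replicates 1 to 4. It was lowest on replicate 2, where members were highest, but highest on replicate 3, where the median member deviation was 0.13. On replicate 4, where members were lowest, it was 0.09. The same ratio of the actin control labelled r2 was 1.08 ± 0.06, 1.18 ± 0.15, 1.40 ± 0.07 and 1.37 ± 0.07. The part of these properties in the members' course was not tested.

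**Figure D5:**
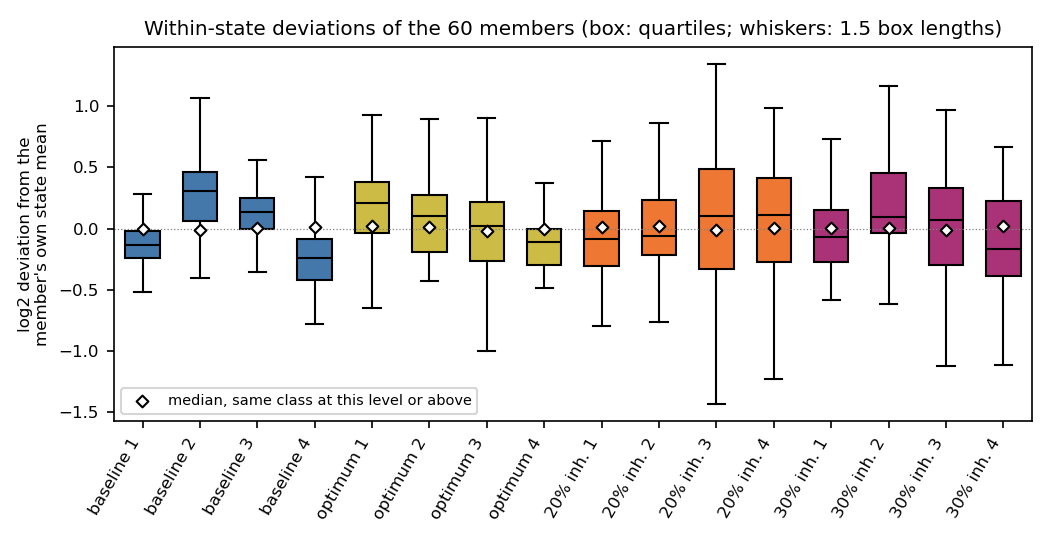
Deviation of each of the 60 members from its own state mean on each of the 16 arrays, on the log2 scale. Boxes span the quartiles with the median as a line, whiskers reach up to 1.5 box lengths, and diamonds give the median of the 22620 comparable probe sets. Boxes sit above 0 on baseline replicate 2 and below it on replicate 4, while all diamonds lie near 0.

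Of 192 probe sets of the same class and level that were lower by at least 1.5 at the optimum, the 60 members make up 31.25%. In 81 the mean at 30% inhibition lay more than 0.5 below the optimum, a stepwise course with median log2 differences from baseline of -1.89, -3.19 and -3.16 in the 3 warm states. In 28 it lay more than 0.5 above the optimum, a transient course with medians of -1.93, -1.07 and -0.61. A further 23 left the range only at 20% inhibition. Another 74 stayed within 0.5 of baseline at the optimum and were lower by at least 1.5 in both inhibited states. These groups are set apart by thresholds on the same means, so their differences were not tested. LOC numbers were about as common in them, at 15 of 81, 8 of 28 and 18 of 74, as in the members.

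Genes with names that met the same 4 conditions numbered 4, with 5 probe sets, or 0.281% of 1777 probe sets that carry a gene name or several genes, against 0.101% of the 59258. Of the 59258, 35816 have soybean IDs, as all members do, and the 60 are 0.168% of these. The MYB transcription factor gene MYB73 met them with both of its probe sets. Gma.7250.1.S1_s_at had signals of 864 ± 345 at baseline and 210.4 ± 87.6, 256 ± 124 and 191 ± 57.7 in the warm states. GmaAffx.92383.1.S1_at had 1821 ± 619.9 at baseline and 587 ± 153, 737 ± 266 and 581 ± 145. WNK13 belongs to the WNK (with no lysine) protein kinases. Its probe set GmaAffx.62856.1.S1_at had 1091 ± 369.9 at baseline and 331 ± 49.4, 311 ± 57.6 and 358 ± 118.

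OAS-TL6 is named for O-acetylserine (thiol)lyase, the enzyme of the last step of cysteine synthesis. Its probe set Gma.11101.1.S1_at had signals of 4095 ± 974 at baseline and 1391 ± 242, 1163 ± 311 and 1410.4 ± 275 in the warm states. A second one, GmaAffx.75515.1.S1_at, was not chosen but had similar log2 differences of -1.35, -1.69 and -1.55. NAC3, of the NAC family of plant transcription factors, met the conditions with GmaAffx.57970.2.S1_at at -1.64, -1.57 and -1.47. Its other 4 probe sets were not alike. Gma.1649.1.A1_at had -1.87, -0.95 and -1.30, and GmaAffx.90496.1.S1_s_at had -1.09, -0.82 and -1.16, both lower in all warm states. GmaAffx.90496.1.S1_at had -0.02, 0.53 and 0.79. The last, GmaAffx.57970.3.S1_at, read only 36.9 ± 15.2 at baseline, below the mean background of that state.

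The named genes whose course over the 16 arrays was most like the median member were taken by Pearson correlation. MYB138, another MYB factor, had r = 0.963, with signals of 4125 ± 1171 at baseline and 1503 ± 186, 1216 ± 191 and 1434 ± 311 in the warm states. SWEET34, of the SWEET family of sugar transporters, had r = 0.955 and a log2 difference of -1.25 at the optimum. AHAS3, named for acetohydroxyacid synthase of branched-chain amino acid synthesis, had r = 0.948 and a difference of -0.88. NF-YA05, of a subunit family of the CCAAT-binding NF-Y complex, had r = 0.936 and a difference of -1.32. PTI1, named after a tomato kinase that interacts with the resistance kinase Pto, had r = 0.931 and a difference of -0.65. All 5 share the step from baseline to optimum, with smaller differences at the optimum than any member. Their later courses were not equally flat. At 20% and 30% inhibition SWEET34 stood at -1.65 and -1.51 from baseline and PTI1 at -0.94 and -0.92, both further down than at the optimum. AHAS3 stood at -0.96 and -0.91 and NF-YA05 at -1.31 and -1.25. The correlations rest largely on the step from baseline to optimum.

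Morning clock and heat shock genes are given for context, as lists chosen with earlier results of these arrays known. The morning clock list of 9 symbols has 7 in the annotation with 9 probe sets. In limma at an adjusted p under 0.05, 8 of the 9 were lower and 0 higher at the optimum than at baseline, with a median log2 difference of -1.91, beside the 6.26% of all probe sets called lower. From the optimum to 20% inhibition 5 of the 9 were lower again, with a median of -2.32, where 8.70% of all probe sets were called lower. LHY, a MYB-related repressor at the core of the clock, had signals of 10400.1 ± 569.7 at baseline, 4376 ± 249.6 at the optimum, 909.6 ± 264 at 20% and 724 ± 68.5 at 30% inhibition (Gma.17697.1.S1_at). Heat shock genes, with 7 symbols and 14 probe sets, were higher at the optimum in 14, against 6.63% of all probe sets, and higher again from the optimum to 20% inhibition in 11, against 7.87%. HSP90A1 had 1770.4 ± 1109.8 at baseline, 19907 ± 4180.2 at the optimum, 63446 ± 3461 at 20% and 59671 ± 7068 at 30% inhibition.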

How the data were processed

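Total RNA was hybridised to 16 arrays, 4 for each of 4 states. The authors deposited 1 linear intensity per probe set and array, computed with the Affymetrix algorithm MAS5, per the submitters' processing notes. The version of MAS5 is not given in the sources used here. The mean intensity without the top and bottom 2% was 500.0 in every column. Such scaling cannot tell a change of total messenger RNA from array brightness. The number of arrays limits the precision.

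Intensities were taken to log2 with no constant added. Array controls were left out. Members were taken by the 4 conditions given above from state means. The one tested step, 30% against 20% inhibition, and the background calls used limma 3.58.1 in R 4.3.3: a mean per state over all 16 arrays, a prior variance following the mean signal, 16.4 total degrees of freedom, two-sided moderated tests, and Benjamini-Hochberg adjustment with a threshold of 0.05. It ran on the 30517 probe sets with a mean log2 signal above the median of 6.08, a signal of 67.6. The fit was tested on simulated data. The background level rests on 23350 probe sets for Phytophthora sojae and Heterodera glycines, assumed not to target soybean. At-least folds compare baseline with the background level of each array. Gene names came from the platform annotation and a RefSeq table of assembly Glycine_max_v4.0; no positions are given because the array's build is not named. Sequences, promoters and proteins were not analysed here.

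The members and gene lists were chosen with earlier results of these data known. Named one by one were the 10 members with the largest optimum difference, the 10 brightest at baseline, those nearest each threshold, other probe sets of member genes, named genes meeting the same conditions, and the 5 named genes most correlated with the median member. Alternatives changed the log2 constant, the normalization, the filter, the background floor, the thresholds, the arrays used and the fit.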

Additional observations from a re-analysis of the deposited data

Results flagged for a closer look

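Within the 4 arrays of a state, 116 groups of values were examined for 1 array far from the other 3 by Dixon's criterion. Chance meets it in about 1 in 20 groups, and 5 met it. The groups came from array properties and from 20 members, those with the largest optimum differences and the brightest at baseline. The remaining members were not examined in this way. Of the 5 groups that met the criterion, 4 belong to members. GmaAffx.32901.3.S1_at read 182 on 30%Inhibition replicate 3 and 6.72 to 9.60 on the other 3 arrays of that state. GmaAffx.5579.1.S1_at read 168 on optimum replicate 3, with the others at 69.1 to 78.5, and 12.5 on 20%Inhibition replicate 3, with the others at 96.4 to 126. GmaAffx.74080.1.S1_at read 50.0 on optimum replicate 3, with the others at 199.7 to 259.9. All 4 are on a replicate 3, in 3 states; the numbers do not mark a shared plant or batch in the labels. The background level of the array was 163 on 20%Inhibition replicate 3, 149 on 30%Inhibition replicate 3 and 100.4 on optimum replicate 3, the highest of each state. The part of that level in these readings was not tested. The fifth is an array property: the log2 ratio of 3′ to 5′ signal of the actin control r2 was 0.955 on optimum replicate 1 and 1.24 to 1.26 on the other 3 optimum arrays.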

How the results depend on the processing

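Of 136 values recomputed under alternatives, 134 kept their direction, their side of the threshold, or a count within 1.5 times. The other 2 are the member counts under another threshold for the optimum difference: 110 where it was lowered by 0.25 and 16 where it was raised to 2, against 60. Many of the 136 are levels of the same 60 probe sets or their differences from baseline. The choice largely fixed the direction of those differences, so that they kept it says little. The probe sets chosen also changed: quantile normalization gave 50, all among the 60, log2(signal + 16) gave 58 with 49 of the 60, state medians 62 with 40, and a floor at the array background 79 with 52. A range of 0.4 or 0.6 around the optimum gave 43 or 78, and a level threshold of 7 or 9 gave 69 or 44. Leaving out each array gave 49 (without baseline replicate 2) to 74 (without baseline replicate 4), and 63 without the array of the highest background. The median member difference stayed between -1.87 and -1.66 at the optimum, -1.85 and -1.69 at 20% and -2.02 and -1.81 at 30% inhibition over the leave-outs, and that between 30% and 20% inhibition between -0.16 and -0.03. For the latter step limma called 0 probe sets and 0 members under every alternative run: no filter, an upper-quartile filter, the added constant, quantile normalization, array weights, the array background as a covariate, only the 8 arrays compared, and each leave-out.

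With replicate number as a block, limma also called 0 probe sets and 0 members in that step, and the median member difference was -0.077. Deviations of same-numbered arrays of different states correlated at -0.28 to 0.22, with a median of 0.053 and values over 0.1 in 7 of 24 pairs. Those of differently numbered arrays correlated at -0.32 to 0.35, with a median of -0.0018 and values over 0.1 in 13 of 72. With only 4 arrays a state, such correlations cannot decide whether the numbers pair the arrays. Signals near background, an absent time control and 4 arrays a state limit what the low level can show.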
